A study of Mus musculus with 12 samples.

Results

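The 10 genes described here encode membrane carriers that move glutamate, glutamine and related amino acids into and out of cells. They are 5 members of the Slc1a family (Slc1a1, Slc1a2, Slc1a3, Slc1a4 and Slc1a5) and 5 carriers of other families (Slc7a5, Slc7a11, Slc38a1, Slc38a2 and Slc3a2). Each was found by its symbol in the nearest-gene column of a table of 67822 chromatin windows of 1000 bp, and all windows within 100 kb of its transcription start site (TSS) were taken. This gave 97 windows, 32 at the Slc1a genes and 65 at the other carriers, out of 15879 genes with such windows in the table. All 97 distances were measured from a transcript of the gene itself.

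Glutamate released at synapses is cleared by sodium-driven uptake through Slc1a carriers, of which Slc1a2 (GLT1) and Slc1a3 (GLAST) are best known from astrocytes. Glutamine enters cells through sodium-coupled Slc38a carriers and through the exchanger Slc1a5, and is broken down to glutamate inside. Glutamate then leaves in exchange for cystine through Slc7a11, and glutamine in exchange for large neutral amino acids through Slc7a5. Both of these need the glycoprotein heavy chain encoded by Slc3a2.

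Acetylation of lysine 27 on histone H3 (H3K27ac), a mark of active promoters and enhancers, was measured by chromatin immunoprecipitation and sequencing. The cells were CD11b-positive microglia, the resident macrophages of the brain, isolated from mouse forebrain with magnetic beads. Wild-type mice of C57BL/6N background were set against Cias1-knockout mice from Millennium Pharmaceuticals, named Nlrp3-/-, which lack a gene whose protein senses danger signals and assembles an inflammasome. Each genotype had 3 H3K27ac libraries and 3 input libraries, the latter being sheared chromatin without immunoprecipitation. The age and sex of the mice and the background of the knockout are not given here, and the labels name no treatment and no disease model. The labels do not say that the replicates of a group were separate animals, so p-values measure the spread between these libraries, which may be in part technical.

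The H3K27ac libraries held 3726550 to 5028129 tags and the input libraries 3287009 to 6961590. Promoters of 11 of 12 microglia marker genes had windows, and their summed H3K27ac was 335 to 423 CPM (counts scaled to a common total of tags per library) in wild type and 325 to 389 in the knockout, against 12.3 to 20.5 in input. Per promoter window this was 21.2 and 19.6. Marker lists of other cell types held 0.565 to 3.77 in wild type and 0 to 4.26 in the knockout, both highest for endothelial and mural cells. Input of these lists was 0.240 to 0.793 in wild type and 0.100 to 0.761 in the knockout. The lowest H3K27ac was read for neurons from 1 promoter window, at 1 of 10 markers (Tubb3). Lymphocytes also had 1 promoter window and border macrophages 2. Monocyte and neutrophil markers, with promoter windows at 1 gene (Itga4), held 0.761 against 3.67. No marker gene tested was called between genotypes, and the part of other cells was not tested. Wild-type replicate 1 stood apart on the Y chromosome, with 12 H3K27ac tags and 1 input tag in 7 windows, while the other H3K27ac libraries held 193 to 280 and the other input libraries 43 to 112. The wild-type group thus mixed material that differed in Y-chromosome content, and its replicate 1 was not a repeat of the same material as replicates 2 and 3. For the other libraries this is not known. In a pool of cells, a larger share of cells with the mark and more of the mark per cell cannot be told apart.

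RefSeq promoter sequences (GRCm38.p6) were matched for 7 of the 10 genes: Slc1a1, Slc1a2, Slc1a3, Slc1a4, Slc38a2, Slc3a2 and Slc7a11. Slc1a5, Slc7a5 and Slc38a1 are named only. The 250 bases before the start are shown for Slc1a3, the 1 gene called between the genotypes, for Slc38a2, whose promoter carried the most H3K27ac of the 10 genes, and for Slc7a11, whose H3K27ac lay in its introns and little at its promoter. All 3 are on the minus strand, at chr15:8710808-8711057, chr15:96699729-96699978 and chr3:50443614-50443863, and are written 5′ to 3′. Capitals mark 3 of the motifs searched on both strands, the CCAAT box (CCAAT), the GC box (GGGCGG) and the CEBP-ATF composite (TGATGNAA).
Slc1a3: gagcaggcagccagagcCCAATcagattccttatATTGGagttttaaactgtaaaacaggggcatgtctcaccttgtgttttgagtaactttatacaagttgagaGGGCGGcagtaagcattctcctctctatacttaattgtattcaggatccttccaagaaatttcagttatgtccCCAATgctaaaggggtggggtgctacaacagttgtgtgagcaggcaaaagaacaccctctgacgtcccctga
Slc38a2: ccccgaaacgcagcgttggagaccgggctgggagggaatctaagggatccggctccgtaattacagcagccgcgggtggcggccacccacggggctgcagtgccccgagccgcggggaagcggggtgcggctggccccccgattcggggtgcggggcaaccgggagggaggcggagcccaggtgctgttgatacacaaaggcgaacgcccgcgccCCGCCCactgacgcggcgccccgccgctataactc
Slc7a11: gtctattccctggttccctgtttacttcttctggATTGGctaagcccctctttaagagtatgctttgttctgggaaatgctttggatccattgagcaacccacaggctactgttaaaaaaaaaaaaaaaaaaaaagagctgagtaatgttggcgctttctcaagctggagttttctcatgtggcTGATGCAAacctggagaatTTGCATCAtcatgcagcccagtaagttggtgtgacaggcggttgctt

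Slc1a3 held 3 CCAAT boxes and 1 GC box, Slc38a2 held 1 GC box, and Slc7a11 held 1 CCAAT box and 2 composites, 66 and 47 bases before the start. Among 32851 promoters of the same length, 33.85% held a CCAAT box, 32.74% a GC box and 3.452% a composite. The E-box (CACGTG), the AP-1 motif (TGANTCA) and the PU.1 core (GAGGAAG), found in 6.021%, 6.749% and 10.61% of promoters, were not among the letters of any of the 7 sequences. The promoter of Slc1a3 was 44.8% G and C with 2 CpG, close to Slc7a11 at 43.2% with 2 CpG, while Slc38a2 reached 72% with 30 CpG, against medians of 52.4% and 6 over all promoters.

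The 10 genes fell into 3 levels of H3K27ac in wild type, compared as mean CPM per window. Slc1a3 (10.3 ± 0.609, SD, n = 3), Slc38a2 (10.3 ± 1.06), Slc3a2 (9.98 ± 1.55) and Slc7a11 (9.69 ± 1.52) were highest and did not differ beyond their spread. Slc38a1 (3.74 ± 0.467), Slc7a5 (3.45 ± 1.10), Slc1a4 (3.30 ± 1.30) and Slc1a1 (3.27 ± 1.75) formed a second level, again within their spread. Slc1a5 (0.965 ± 0.837) and Slc1a2 (0.386 ± 0.457) were lowest and did not differ beyond their spread from their own input, 0.550 ± 0.125 and 0.653 ± 0.314. The median of all 15879 genes was 3.64 per window. In the knockout the same 2 genes were lowest, and Slc1a3 stood first at 16.4 ± 4.49.

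**Figure D1:**
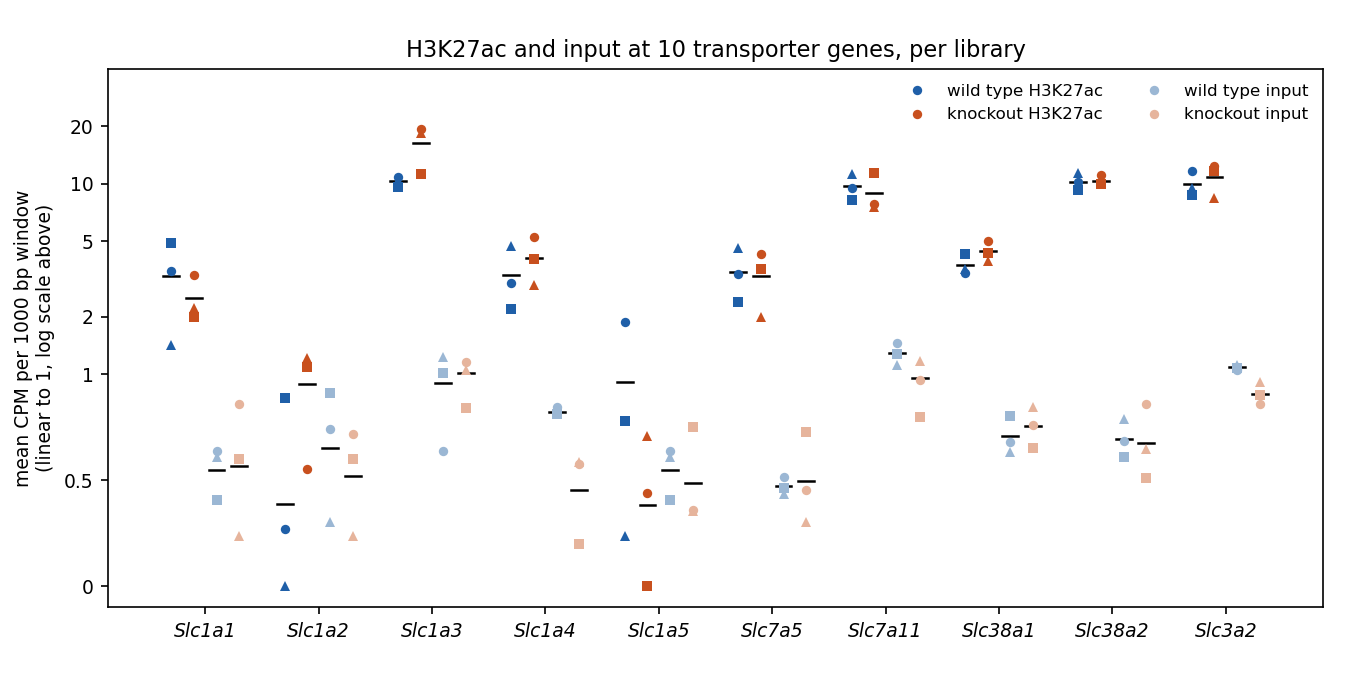
Mean CPM per 1000 bp window (vertical axis, linear up to 1 and logarithmic above) for the 10 genes, with 1 point per library (circle, square and triangle for replicates 1, 2 and 3) and bars at group means. Slc1a3, Slc38a2, Slc3a2 and Slc7a11 lie near 10 in wild type, and knockout replicates 1 and 3 of Slc1a3 lie at 19.4 and 18.5.

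H3K27ac exceeded input in each gene that passed the abundance filter. That filter keeps a gene if any group is high enough. Genes with few input tags, such as Slc1a1 with 1 to 6 per library, therefore entered only through their H3K27ac. The counts of genes and windows called, here and over all features, are thus partly set by the filter. In wild type 8 of 8 tested genes were called higher than input (edgeR, adjusted p under 0.05), against 85.6% of all 12468 genes tested, and in the knockout again 8 of 8, against 87.9%. The log2 difference from input was widest for Slc38a2 (3.90 in wild type and 3.89 in the knockout) and Slc1a3 (3.44 and 3.99). It was 3.20 and 3.57 for Slc3a2, 2.90 and 3.17 for Slc7a11, 2.85 and 2.76 for Slc7a5, and 2.40 and 2.54 for Slc38a1. Slc1a4 (2.00 and 3.08) and Slc1a1 (2.53 and 2.03) completed the 8. Slc1a2 and Slc1a5 were removed by the abundance filter, and without it their differences from input were −0.75 and 0.79 for wild type, then 0.85 and −0.29 for the knockout, none of them called. Of single windows, 56 of 66 tested were called above input in wild type (88.7% of all windows) and 60 of 66 in the knockout (91.7%), shares near those of all windows. These calls used the total tags of each library for scaling. TMM, a scaling that takes most features to be equal between libraries, left 3 of the 8 genes called in each genotype.

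At promoters, meaning windows within 1 kb of a TSS, the order changed. Slc38a2 was highest with 24.3 ± 3.48 CPM per window in wild type and 23.2 ± 3.55 in the knockout, the 95.1 percentile of 11591 genes in wild type. Slc3a2 followed with 15.7 ± 2.84 and 17.5 ± 4.18. Slc38a1 (8.11 ± 3.20 and 11.01 ± 1.10) and Slc1a4 (7.86 ± 3.48 and 8.69 ± 1.27) lay above the gene median of 5.72 and 5.73. Slc7a11 (2.50 ± 2.46 and 2.02 ± 1.47), Slc7a5 (1.68 ± 0.188 and 2.24 ± 0.584) and Slc1a5 (1.63 ± 1.84 and 0.0677 ± 0.117) lay below it, and Slc1a1 and Slc1a2 had no promoter window. Slc1a3 varied most, at 6.98, 5.23 and 21.9 in wild-type replicates 1, 2 and 3 and at 30.3, 5.17 and 27.7 in knockout replicates 1, 2 and 3. Its promoter was thus high in wild-type replicate 3 and in knockout replicates 1 and 3, low in the other 3 libraries, and the genotypes overlapped. Of its 2 promoter windows, the one at +13 bp also holds 1 end of the noncoding RNA gene Gm31340. The tags of that window cannot be given to 1 of the genes.

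The genotypes were then compared gene by gene. Of the 10 genes 8 passed the abundance filter and 1 was called, Slc1a3, against 0.206% of the 12148 genes tested (25 genes, 7 of them higher in the knockout). The median log2 fold change of the 8 was 0.06, beside 0.00 over all genes. Slc1a3, the glutamate and aspartate carrier GLAST, lies at chr15:8634124-8710807 and had 21 windows. Its summed H3K27ac tags were 846, 907 and 925 in wild-type replicates 1, 2 and 3 and 1846, 1185 and 1916 in the knockout replicates. All 3 knockout libraries were above all 3 wild-type libraries, knockout replicates 1 and 3 further than replicate 2. In CPM this was 216 ± 12.8 (SD, n = 3) against 344 ± 94.2. Slc1a3 rose in the knockout by 0.69 on the log2 scale (SE 0.14, edgeR quasi-likelihood test, adjusted p = 0.0248).

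This call depended on 1 window, on most of the libraries and on the settings of the fit. Without the window at −91066 bp from the TSS the log2 fold change was 0.42 (adjusted p = 0.273), and DESeq2 gave 0.69 (adjusted p = 0.569). It was lost on leaving out any of wild-type replicates 1, 2 and 3 and knockout replicates 1 and 3 (log2 fold change 0.71, 0.69, 0.67, 0.61 and 0.50, adjusted p = 0.0973, 0.173, 0.163, 0.286 and 0.231), and held without knockout replicate 2 (0.92, adjusted p = 1.19e-05). Scaled to total tags in place of TMM it was 0.67 (adjusted p = 0.0595). With only the windows within 20 kb or 1 kb of the TSS it was 1.49 (adjusted p = 0.480) and 0.95 (adjusted p = 1.00). The call was also lost in a fit with the replicate number as a block (0.64, adjusted p = 0.0604), although same-numbered H3K27ac libraries of the genotypes did not deviate together.

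Along Slc1a3 the libraries differed most on the TSS side and lay closer together in the windows at the 3′ end of the gene. The window at −91066 bp (chr15:8801373-8802373) is annotated as intergenic in the table, and RefSeq places it inside the long noncoding RNA gene Gm31340 (chr15:8711026-8864483). The windows at −11764 and −26752 bp also lie inside Gm31340, so tags on this side cannot be given to Slc1a3 alone. At −91066 bp the H3K27ac tags were 13, 36 and 37 in wild type against 434, 55 and 458 in the knockout, replicates 1, 2 and 3. Knockout replicates 1 and 3 stood far above the rest, and knockout replicate 2 was above the highest wild-type library by 55 tags against 37. This was the 1 window called among 64 tested at the 10 genes, against 0.0595% of 40370 windows, with a log2 fold change of 3.31 (SE 0.49, adjusted p = 0.00208). With any 1 of the 6 libraries left out it was still called (2.86 to 3.82), whereas DESeq2 did not call it (3.33, adjusted p = 0.126).

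The input of this window moved with its H3K27ac. It held 2, 6 and 2 input tags in wild type against 19, 2 and 14 in knockout replicates 1, 2 and 3, high in the same replicates as the H3K27ac. Their part in the result was not tested.

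Next to the promoter, the windows in intron 2 showed the same libraries high. At +3907 bp (chr15:8706400-8707400) the H3K27ac tags were 9, 3 and 0 in wild type against 128, 0 and 120 in the knockout. At +5670 bp (chr15:8704637-8705637) they were 18, 12 and 26 in wild type against 106, 11 and 105 in the knockout. In both windows knockout replicates 1 and 3 were high, while replicate 2 was as low as wild type, so the genotypes overlapped. Neither was called (log2 fold change 4.16, SE 0.93, adjusted p = 0.141, and 1.82, SE 0.55, adjusted p = 0.629). Both were called when knockout replicate 2, the low knockout library, was left out (4.75, adjusted p = 0.000426, and 2.35, adjusted p = 0.0253). With any other library left out neither was called (edgeR adjusted p = 0.224 to 0.999), nor with DESeq2 (adjusted p = 0.816 and 0.758). Without the abundance filter both were called (edgeR adjusted p = 4.73e-12 and 0.0112). These 2 windows are named because of their values. Their input tags were 1, 4 and 1 in wild type against 11, 1 and 4 in the knockout at +3907 bp. At +5670 bp they were 3, 2 and 6 against 5, 3 and 4. In CPM the input was highest in knockout replicates 1 and 3 at +3907 bp, and in wild-type replicate 3 at +5670 bp. The part of input in these windows was not tested. At +333 bp, in the first exon, the tags were 27, 32 and 98 in wild type against 152, 33 and 153 in the knockout. Here wild-type replicate 3 joined the high libraries, and the difference was not called (0.95, SE 0.44, adjusted p = 0.998).

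Taken as a sum, the 14 windows more than 10 kb downstream of the TSS, in the rest of the gene and beyond its end, lay closer together. Their summed tags were 743, 798 and 674 in wild type against 846, 1049 and 915 in the knockout, or 179 ± 20.1 against 194 ± 12.96 CPM. The 7 windows from 100 kb upstream to 10 kb downstream summed to 103, 109 and 251 tags in wild type against 1000, 136 and 1001 in the knockout, or 37.1 ± 19.3 against 150 ± 107 CPM. The border at 10 kb was set after the values were seen, and no test was made between the sides. Single windows beyond +10 kb varied. In intron 6, at +67444 bp, named because of its values, the tags were 40, 26 and 31 in wild type against 69, 49 and 94 in the knockout. In CPM the genotypes overlapped there, and the window was not called (log2 fold change 0.93, SE 0.38, edgeR unadjusted p = 0.0203, adjusted p = 0.998). At the 3′ untranslated region, the window with the most tags in wild type, at +75222 bp, held 148, 177 and 133 in wild type against 157, 175 and 139 in the knockout (log2 fold change −0.18, SE 0.21, adjusted p = 0.998). The 3 windows there overlap and share tags. Further on, at +81415 bp, where few tags lay, the knockout was again above wild type, at 3.75, 2.59 and 3.25 against 0.805, 1.56 and 0 CPM, and this window, named because of its values, was not called.

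**Figure D2:**
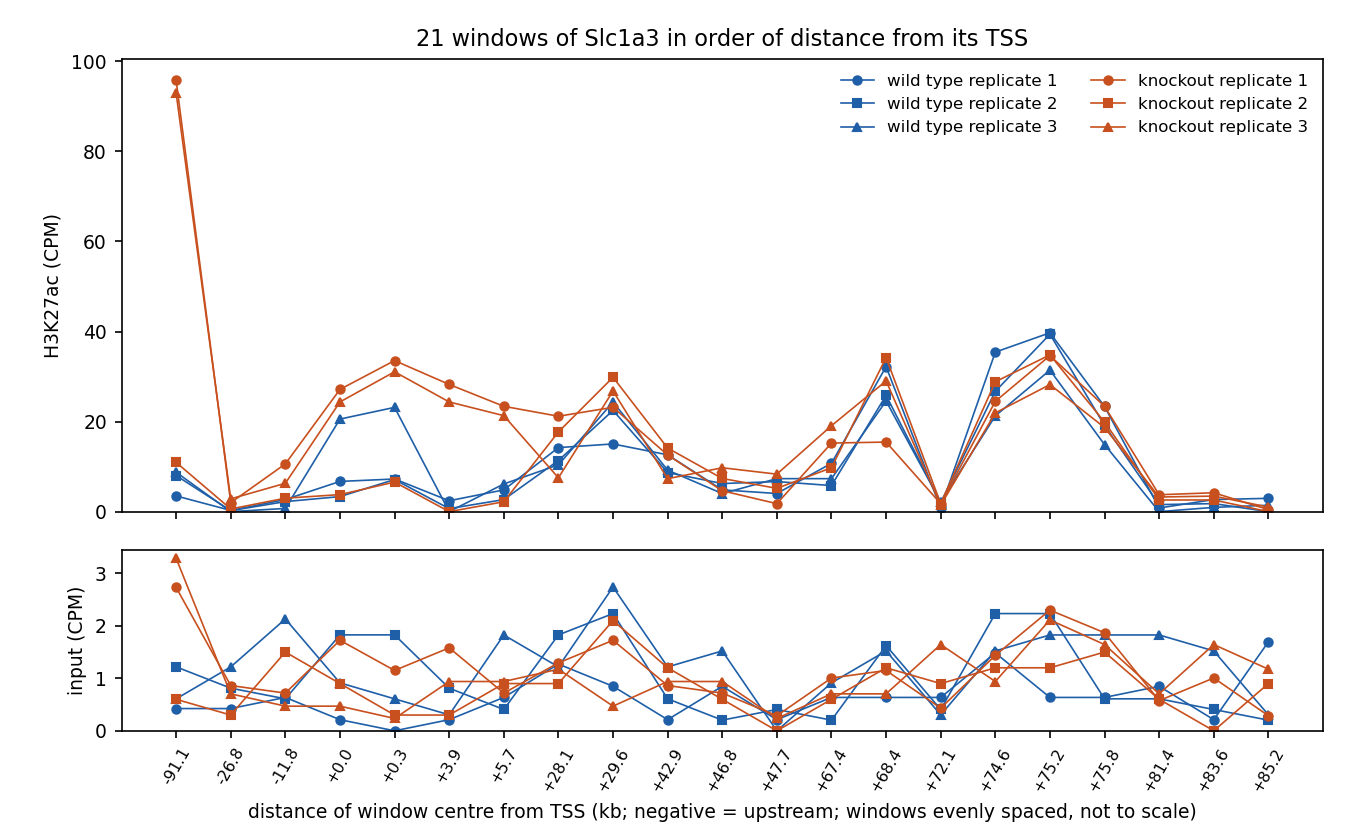
H3K27ac (top) and input (bottom) in CPM for the 21 windows of Slc1a3, in order of distance from the TSS (horizontal axis, evenly spaced, in kb), with 1 line per library, wild type in blue and knockout in orange. Knockout replicates 1 and 3 lie above the other libraries at −91.1 kb and from −11.8 to +5.67 kb, wild-type replicate 3 joins them at the promoter, and at +74.6 to +75.8 kb the genotypes overlap.

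Since Slc1a3 is best known from astrocytes, their markers were read in the same libraries. Of 15 astrocyte markers 3 had a promoter window (Aldh1l1, Fgfr3 and Ndrg2) and 10 had any window. Their summed promoter H3K27ac was 2.42, 5.56 and 8.74 CPM in wild type against 3.31, 6.56 and 1.83 in the knockout, replicates 1, 2 and 3, against 0.704 to 4.87 in input. Aldh1l1 held 0 to 5 and Fgfr3 0 to 7 H3K27ac tags per library. Ndrg2 held more, at 3, 20 and 32 tags in wild type against 7, 23 and 2 in the knockout. Over all 23 windows of the 10 genes the sums were 48.6, 45.9 and 43.7 in wild type against 44.6, 52.7 and 54.8 in the knockout. The genotypes overlapped on both sums, and knockout replicate 3 was lowest on the first and highest on the second. The part of astrocytes in the Slc1a3 values was not tested.

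In input the 7 genes that passed the filter included none called by edgeR or DESeq2, against 0.2% of 6511 genes, and 1 had an unadjusted p under 0.05. That gene was Slc1a3, with 63, 105 and 85 input tags in wild type against 170, 59 and 94 in the knockout (log2 fold change 0.33, SE 0.16, edgeR adjusted p = 0.927). The libraries overlapped. When the genotype difference in H3K27ac was taken over the input of each genotype, none of the 8 genes was called by edgeR (0% of 12468 genes, with 747 at an unadjusted p under 0.05). The log2 difference was 0.55 for Slc1a3 (SE 0.26, adjusted p = 0.810) and 1.08 for Slc1a4 (SE 0.51, adjusted p = 0.810), both with an unadjusted p under 0.05, beside a median of 0.19 over all genes. For Slc1a4 the H3K27ac alone differed by 0.30. Its input was lower in the knockout, at 4.94 ± 0.124 CPM in wild type against 2.72 ± 1.32 (log2 fold change −0.59, SE 0.34, edgeR adjusted p = 0.973). Input tags were 24, 24 and 16 against 24, 4 and 15.

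The other Slc1a genes held few tags. Slc1a1, the glutamate carrier best known from neurons, had 1 window, at −57343 bp, with 13, 22 and 6 tags in wild type against 15, 10 and 11 in the knockout. The groups overlapped, and the log2 fold change was −0.40 (SE 0.77, adjusted p = 0.988). Slc1a2, the main glutamate carrier of astrocytes, had 2 windows with summed tags of 2, 8 and 0 in wild type against 5, 11 and 12 in the knockout. Its input held 7, 9 and 2, and 10, 4 and 2, so H3K27ac above background was not detectable at this depth.

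Slc1a4 and Slc1a5 encode the neutral amino acid exchangers of the family. Slc1a4, which carries alanine, serine and cysteine, had 67, 59 and 120 tags over 6 windows in wild type against 143, 121 and 87 in the knockout. Wild-type replicate 3 lay inside the knockout range, and the fold change was 0.30 (SE 0.30, adjusted p = 0.972). Its promoter window with the most H3K27ac, at −593 bp, held 27, 23 and 57 tags in wild type against 49, 74 and 48 in the knockout (0.46, SE 0.39, adjusted p = 0.998).

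Slc1a5 (ASCT2), the glutamine exchanger, had 2 windows with 14, 7 and 2 tags in wild type against 4, 0 and 7 in the knockout. In its promoter window the tags were 14, 3 and 2 in wild type against 0, 0 and 1 in the knockout, with 6, 2 and 3 input tags in wild type against 1, 1 and 2 in the knockout. All 3 wild-type libraries were above the knockout, yet 2 of them held no more than 3 tags, and the window was below the filter. H3K27ac at this gene could not be told from input at this depth.

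Among the carriers outside the Slc1a family none of the 5 genes was called. Slc38a2 (SNAT2), a sodium-coupled glutamine carrier, had 647, 705 and 817 tags over 17 windows in wild type against 856, 850 and 832 in the knockout. On the CPM scale these were 175 ± 18.1 and 176 ± 11.5. The log2 fold change of 0.02 (SE 0.11, adjusted p = 0.997) was the smallest in size of the 8 tested genes. Its highest window, at +584 bp, held 122, 162 and 210 tags in wild type against 190, 147 and 175 in the knockout (−0.14, SE 0.22, adjusted p = 0.998). A second cluster lay about 10 kb upstream, where the window at −10252 bp held 98, 75 and 110 tags in wild type against 154, 160 and 121 in the knockout (0.40, SE 0.23, adjusted p = 0.998). That window, the one at −78696 bp and the one at +75222 bp of Slc1a3 are named because of their values.

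Its window at −42210 bp had the smallest p of the gene. The tags were 15, 13 and 26 in wild type against 10, 3 and 0 in the knockout, and knockout replicate 1 held 12 input tags beside its 10 of H3K27ac. Every knockout library was below every wild-type library, but the difference was not called (−2.25, SE 0.96, adjusted p = 0.998). One window, at −78696 bp, had no H3K27ac tag in any library, which allows up to 3 tags in each, counting error only.

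Slc38a1 (SNAT1), the neighbouring glutamine carrier on chromosome 15, had the most windows, 23, with 290, 441 and 347 tags in wild type against 519, 498 and 447 in the knockout. All knockout counts were higher, whereas in CPM the groups overlapped (85.98 ± 10.7 against 101 ± 12.1), and the fold change was 0.23 (SE 0.15, adjusted p = 0.931). Its highest window lay upstream at −12027 bp, with 45, 69 and 81 tags in wild type against 70, 86 and 54 in the knockout (−0.11, SE 0.30, adjusted p = 0.998). The window beside it at −12752 bp overlaps it and held 31, 42 and 22 against 22, 19 and 22 (−0.80, SE 0.48, adjusted p = 0.998). The promoter window at −286 bp held 46, 65 and 31 tags in wild type against 83, 55 and 82 in the knockout (0.43, SE 0.35, adjusted p = 0.998).

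Slc7a11 (xCT), which exports glutamate in exchange for cystine, carried its H3K27ac inside the gene. Its 9 windows summed to 319, 334 and 430 tags in wild type against 320, 514 and 334 in the knockout, with a fold change of −0.11 (SE 0.17, adjusted p = 0.980). The promoter window at −36 bp held 8, 23 and 1 tags in wild type against 3, 18 and 9 in the knockout and did not pass the filter. Of its 7 intron windows, 2 in introns 1 and 2 and 2 in intron 6 held the most tags. At +36634 bp the tags were 100, 79 and 67 in wild type against 84, 86 and 115 in the knockout (0.00, SE 0.28, adjusted p = 1.00). At +37495 bp they were 81, 76 and 103 against 88, 127 and 50 (−0.21, SE 0.28, adjusted p = 0.998). The groups overlapped in each of these windows.

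Slc7a5 (LAT1), which exchanges glutamine for leucine and other large neutral amino acids, had 88, 75 and 136 tags over 7 windows in wild type against 136, 126 and 69 in the knockout. The fold change was −0.07 (SE 0.30, adjusted p = 0.997), with overlapping groups. Its highest window, 30245 bp from the TSS and outside the gene, held 43, 39 and 59 tags in wild type against 54, 30 and 19 in the knockout (−0.67, SE 0.41, adjusted p = 0.998). The promoter window at −35 bp held 3, 17 and 13 against 10, 11 and 13 (−0.13, SE 0.85, adjusted p = 0.998).

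Slc3a2 (CD98 heavy chain), the partner of Slc7a5 and Slc7a11, had 393, 353 and 362 tags over 9 windows in wild type against 503, 525 and 374 in the knockout. The fold change was 0.11 (SE 0.15, adjusted p = 0.977). Its highest window, at +75 bp from the upstream of its 2 starts (chr19:8722794-8723794), held 126, 106 and 101 tags in wild type against 162, 176 and 81 in the knockout (0.08, SE 0.25, adjusted p = 0.998). This window also holds the RefSeq start of the noncoding RNA gene Snhg1 at 8723487, so its tags cannot be given to 1 of the genes. At +935 bp the tags were 58, 62 and 46 in wild type against 88, 108 and 59 in the knockout, overlapping only through knockout replicate 3 (0.38, SE 0.30, adjusted p = 0.998).

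**Figure D3:**
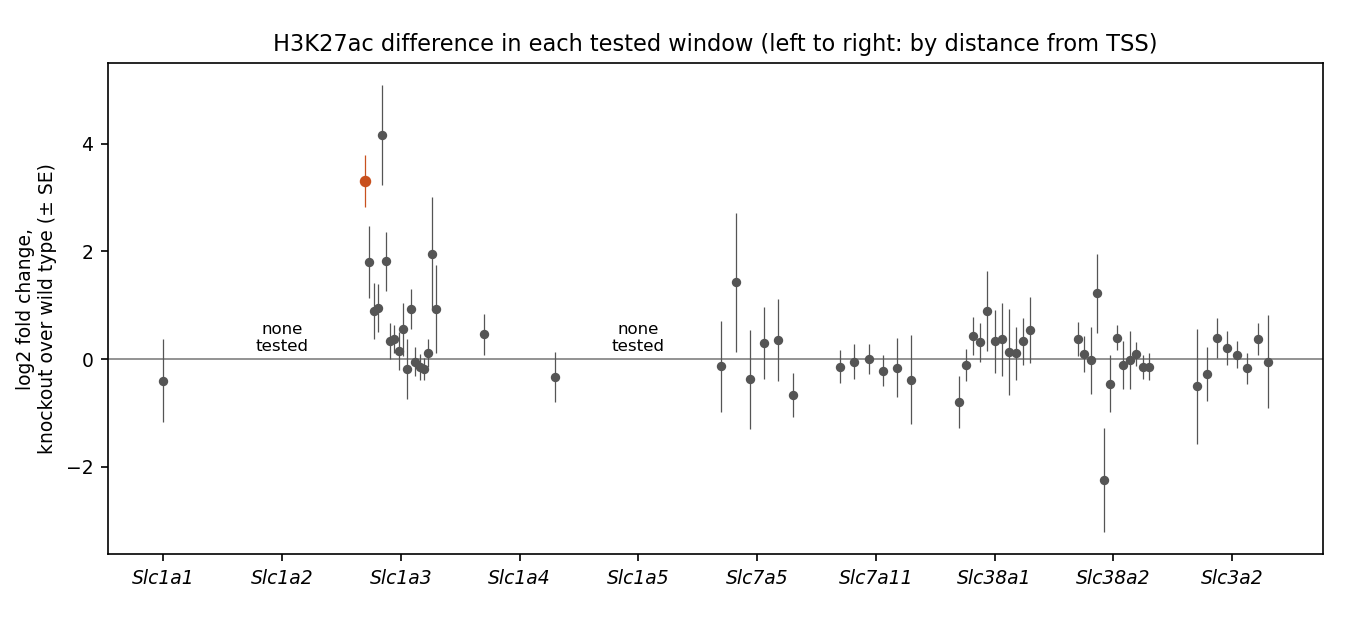
Log2 fold change of H3K27ac, knockout over wild type, with its standard error (vertical axis) for each of the 64 tested windows, grouped by gene and ordered within a gene from upstream to downstream. The called window, in orange, is the upstream window of Slc1a3 at 3.31, and the windows of the carriers lie on both sides of 0.

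Over the 64 tested windows, 37 had a positive fold change (57.8%, beside 50.4% of all windows), and 7 had an unadjusted p under 0.05, against 4.69% of all windows. Of these 7 windows 6 were at Slc1a3 and 1 at Slc38a2. All 3 knockout libraries were above all 3 wild-type libraries in CPM in 4 of the 64 (3 of the 18 tested at Slc1a3 and 1 of the 46 at the other genes), against 5.19% of all windows. The reverse held in 2 of 64, neither of them at Slc1a3, against 4.91%. Outside Slc1a3 these counts were near the background.

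Slc1a3 was also set against the others within each library, which needs no scaling. The log2 ratio of its tags to the summed tags of the other 4 Slc1a genes was 3.13, 3.23 and 2.85 in wild type against 3.46, 3.06 and 4.03 in the knockout. The ratio in knockout replicate 2 lay inside the wild-type range. The difference of 0.44 (3.07 ± 0.200 against 3.52 ± 0.488, SD, n = 3) gave p = 0.3 in a 2-sided exact permutation test, where 3 against 3 cannot go below 0.1. Against the 5 carriers the ratio was −1.04, −1.07 and −1.18 in wild type against −0.34, −1.08 and −0.10 in the knockout. Again replicate 2 was at the wild-type level, and the difference of 0.59 gave p = 0.3 in the same exact test. Adjusted over the 2 ratios, both p-values were again 0.3. In input the same ratios differed by 0.70 (exact permutation p = 0.1) and 0.22 (exact permutation p = 0.7). The first input ratio was 0.65, 1.42 and 1.80 in wild type against 1.91, 1.94 and 2.14 in the knockout. Its genotypes did not overlap in input, unlike in H3K27ac.

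**Figure D4:**
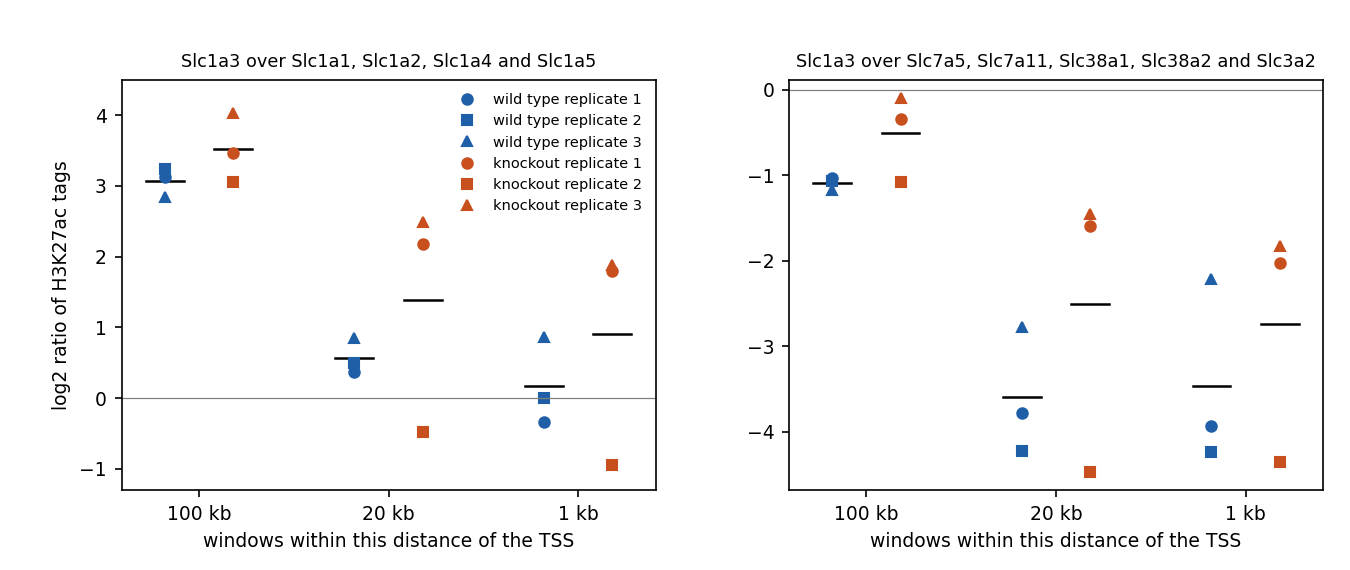
Log2 ratio of Slc1a3 H3K27ac tags to those of the other Slc1a genes (left) and of the 5 carriers (right), with 1 point per library and bars at group means, for windows within 100, 20 and 1 kb of a TSS. Knockout replicate 2 lies among the wild-type libraries at 100 kb and below them at 20 and 1 kb, and knockout replicates 1 and 3 lie highest throughout.

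Enzymes and further carriers of glutamine and glutamate were read from a list of 52 genes without the 10. Of these 42 had a window, 34 were tested, and none was called by edgeR or DESeq2, while 2 had an unadjusted p under 0.05, against 5.77% of all genes. The fold change was positive for 12 and negative for 22, beside 50.2% positive over all genes, with a median of −0.12. The smallest p was that of Slc38a10, a relative of the glutamine carriers, with 292, 260 and 384 tags in wild type against 259, 225 and 202 in the knockout (−0.66, SE 0.19, adjusted p = 0.273). Psat1, which uses glutamate in serine synthesis, held 90, 70 and 82 against 48, 50 and 55 (−0.88, SE 0.33, adjusted p = 0.645). Slc25a12, the mitochondrial aspartate and glutamate carrier, held 87, 123 and 104 against 142, 199 and 148 (0.42, SE 0.25, adjusted p = 0.915).

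Finally, genes were ranked by how their log2 CPM followed that of Slc1a3 over the 6 H3K27ac libraries. Among 6073 genes at or above the median abundance the highest Pearson r were those of Tjp1 (0.97), Abhd11 (0.96) and Ankle2 (0.96). Of the 9 other transporter genes Slc38a1 was most like Slc1a3 (0.51) and Slc7a11 least (−0.66). These are descriptions over 6 libraries that share their depth, and the highest out of all genes ranked.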

How the data were processed

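H3K27ac and input were measured in 12 libraries, and the labels' genotype, antibody and title gave the groups. Raw tag counts, as deposited by the authors without normalization, were used. Per the file headers, HOMER annotatePeaks counted them on mm10 in windows centred on merged sites from a directory named ATAC, so H3K27ac outside those sites was not analysed here. DESeq2 is also named in the submitters' processing notes. For the aligner, duplicates and tool versions, nothing is given in the sources used here. Overlapping windows share tags.

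Counts per window and summed per gene were fitted with edgeR 4.0.16 (R 4.3.3; TMM, filterByExpr, quasi-likelihood test, Benjamini-Hochberg over all features kept, threshold 0.05). H3K27ac against input used all 4 groups and the total tags of each library. A standard error is the fitted log2 change divided by the root of the F statistic. Printed levels are CPM of all tags of a library. Ratios had 0.5 added to both sums and were tested with scipy 1.17.1. DESeq2 1.42.0, total-tag scaling, no filter, a replicate block, other distances and leaving out libraries were alternatives. Fits were tested on simulated data. Replicates differed by more than sampling noise.

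Named windows of a gene were its highest promoter window, its highest window, the one with the smallest p, and any called one; others are described as chosen by value. The members, lists and tests were chosen with earlier results of these data known. The ranking of windows by likeness to the upstream window of Slc1a3 is not reported here.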

Additional observations from a re-analysis of the deposited data

Results flagged for a closer look

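The 10 windows that lie nearest Slc38a2 or Slc7a11 but beyond 100 kb were left out of the gene sums and the counts of member windows. Those that passed the filter were part of the fits over all windows. Of the 10, 1 had every H3K27ac library above every input library in CPM. The Slc38a2 window at −118124 bp had 32, 13 and 20 H3K27ac tags in wild type against 24, 39 and 8 in the knockout. Its input tags were 2, 8 and 5, against 3, 1 and 4. Its mean H3K27ac was 5.90 times its mean input, although the lowest H3K27ac library and the highest input library both rounded to 1.62 CPM. RefSeq places the noncoding RNA gene Gm32564 at chr15:96818707-96833419, which begins in the overlapping window at −118886 bp. By edgeR both windows were called above input in wild type and knockout, as were 88.7% and 91.7% of all windows. The adjusted p were 0.00176 and 6.64e-05 at −118124 bp, and 0.000478 and 0.00707 at −118886 bp. Neither was called between genotypes (−0.15, SE 0.58, and −0.91, SE 0.62, edgeR adjusted p = 0.998 for both).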

How the results depend on the processing

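Of the 10 genes, the number called between genotypes was 1, and it was 0 with DESeq2, with total-tag scaling, with windows within 1 kb or 20 kb of the TSS and without the window at −91 kb, which was left out after seeing the data; it was 0 to 1 with each library left out. Over all genes the count of 25 was 38 with DESeq2, 16 with total-tag scaling, 48 without the filter, 1 within 1 kb, and 8 to 18 with a library left out. Of member windows 0 were called with DESeq2, 3 without the filter and 1 to 3 with a library left out; over all windows the count of 24 was 68 with DESeq2, 68 without the filter and 10 to 29 with a library left out. In input the 13 genes called were 7 with DESeq2 and 6 with total-tag scaling. With TMM in place of total tags, H3K27ac over input was called for 3 genes in wild type and 3 in the knockout (2778 and 2820 of all genes) and for 10 and 8 windows (5028 and 5022 of all windows). The genotype difference over input had 0 to 1 genes called with a library left out. The cause of these differences was not tested.

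Uncalled values near 0 changed sign. With a library left out, Slc1a1 ranged from −0.78 to 0.081, as did its window at −57343 bp (−0.78 to 0.084), Slc7a5 from −0.27 to 0.16, Slc38a2 from −0.032 to 0.075, and the windows Slc7a5 −35 bp from −0.56 to 0.33, Slc7a11 36634 bp from −0.24 to 0.23, Slc7a11 37495 bp from −0.49 to 0.022, Slc38a1 −12027 bp from −0.27 to 0.036, Slc38a2 584 bp from −0.28 to 0.025 and Slc3a2 75 bp from −0.049 to 0.31. Within 1 kb and 20 kb Slc7a5 was at 0.40 and 0.31 and Slc38a2 at −0.054 and −0.0042. The Slc7a11 window at 36634 bp was at −0.00037 with DESeq2, −0.026 with total-tag scaling and −0.0069 without the filter.

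Between genotypes, libraries of the same number did not deviate together (correlations of −0.000788 to 0.00355 for H3K27ac and −0.000351 to 0.00175 for input). H3K27ac and input of the same number and genotype had small positive correlations (0.00306 to 0.0153), and not every library correlated best with its own number. Wild-type replicate 1 was low on the Y chromosome in both its H3K27ac and its input. At the upstream window of Slc1a3 both were high in the same knockout replicates. With the replicate block 0 of the 10 genes and 15 of all genes were called, Slc1a3 being at 0.64 (adjusted p = 0.0604), the Slc7a5 window at −35 bp was at 0.058 and the Slc7a11 window at 36634 bp at −0.0025. The block ended no other call on the 10 genes between genotypes. Windows held a median of 12 to 16 H3K27ac tags and 2 to 5 input tags, so differences in low windows were not detectable at this depth.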
